A study of Homo sapiens with 9 samples.

Results

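Hypoxia-inducible factors (HIFs) are transcription factors whose α subunits are destroyed when oxygen is plentiful and persist when it is scarce, where they bind DNA with the constitutive β subunit ARNT and turn on genes for glucose uptake, glycolysis, blood vessel growth and pH control. In liver cancer cells low oxygen also slows protein synthesis and engages stress pathways that do not need HIFs, among them the integrated stress response, in which phosphorylation of the initiation factor eIF2α lowers translation while the transcription factor ATF4 is made. 32-134D is a HIF inhibitor. The comparison reported here asked which mRNAs differed from those of normoxic cells when hypoxic cells were given 32-134D. These include the part of the hypoxic program that the compound did not return to the normoxic level. They also include genes whose level with the compound lay beyond both vehicle groups, such as CYP1A1.

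RNA-seq counts were available for 9 cultures of Hep3B, an established human liver cancer line, and 6 of the 9 libraries enter the comparison: 3 replicates with 32-134D at 1% O2 and 3 with vehicle (DMSO) at 20% O2, all for 24 hours. They were chosen by their labels alone. The other 3 libraries, vehicle at 1% O2 for 24 hours, are given beside them as the untreated hypoxic level. No library combined 32-134D with 20% O2. For a gene between or level with the vehicle groups, an effect of the compound that does not depend on oxygen therefore cannot be told apart from an incomplete return. The labels give no dose. Total counts ranged from 6013980 to 31370726 in vehicle at 20% O2 and from 21044373 to 34154796 with 32-134D. The 11 liver cancer cell markers examined (among them ALB, AFP and HNF4A) were all detected and 0 were called in the comparison. Of 13 markers of immune, endothelial, stromal and red blood cells, 7 (PTPRC, CD3E, VWF, DCN, ACTA2, DES and HBB) had fewer than 10 counts over the 9 libraries. The other 6 (CD68, CD14, PECAM1, COL1A1, COL1A2 and PDGFRB) had enough counts to be tested, and 0 were called in the comparison. One library stood apart: 32-134D replicate 3 differed from replicates 1 and 2 by a chi-square of 40.5 and 36.2 per degree of freedom, against 1.64 to 13.3 for the other pairs of replicates. Values without it are given beside many of the results that it moved. Levels are CPM (read counts scaled to a fixed library total) after TMM scaling, and differences are log2 fold changes from edgeR's quasi-likelihood test with a Benjamini-Hochberg false discovery rate (FDR) over 22672 genes. A gene was called when the FDR was below 0.05 and the fold change above 1.5. CPM carries no correction for transcript length, so levels are compared between libraries and not between genes, and in bulk RNA fewer cells with a transcript and less transcript per cell cannot be told apart.

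With 32-134D at 1% O2, 681 genes (3.0% of those tested) were higher than with vehicle at 20% O2 and 117 (0.516%) were lower. For scale, and sharing libraries with this comparison, vehicle at 1% O2 against vehicle at 20% O2 gave 4412 higher (19.5%) and 4595 lower (20.3%), and 32-134D against vehicle at 1% O2 gave 3675 higher (16.2%) and 3100 lower (13.7%). A missed threshold does not show that a gene returned, so the 95% interval of each difference was also set against 1.5-fold: it lay wholly within 1.5-fold of the normoxic level for 9104 genes, and 12770 genes were neither called nor bounded in this way. Bounding needed counts. Among the 11728 genes with a normalized count (CPM at the mean library size) of at least 100 in the higher group, 75.1% were bounded within 1.5-fold, and among those below it 2.70%. The median log2 fold change of the 681 higher genes was 0.90, where their median in hypoxic vehicle was 1.90. That of the 117 lower genes was -0.71, against -1.76 in hypoxic vehicle.

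The higher and the lower calls were not equally firm. Of the 681 higher genes, in 675 the libraries of one group lay apart from those of the other, which held for 29.8% of all genes in either direction, 283 were over 2-fold, 338 had an interval wholly past 1.5-fold, and 385 kept the call with each of the 6 libraries left out in turn. Of the 117 lower genes, 21 were over 2-fold, 5 had such an interval, and 3 kept the call through all 6 omissions. Without 32-134D replicate 3 the counts were 627 higher and 83 lower. The lower genes had a median transcript GC content of 60.2% against 49.2% for all genes tested, and removing trends over length and GC from each library left 63 lower and 630 higher calls. The share of counts on GC-rich genes differed between the groups. Spearman's rho of each library's deviations with GC was 0.17 to 0.26 in vehicle at 20% O2, -0.20 to -0.07 in vehicle at 1% O2 and -0.13 to -0.07 with 32-134D. The cause of this difference was not tested, nor was its part in the lower calls beyond the count with trends removed.

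**Figure D1:**
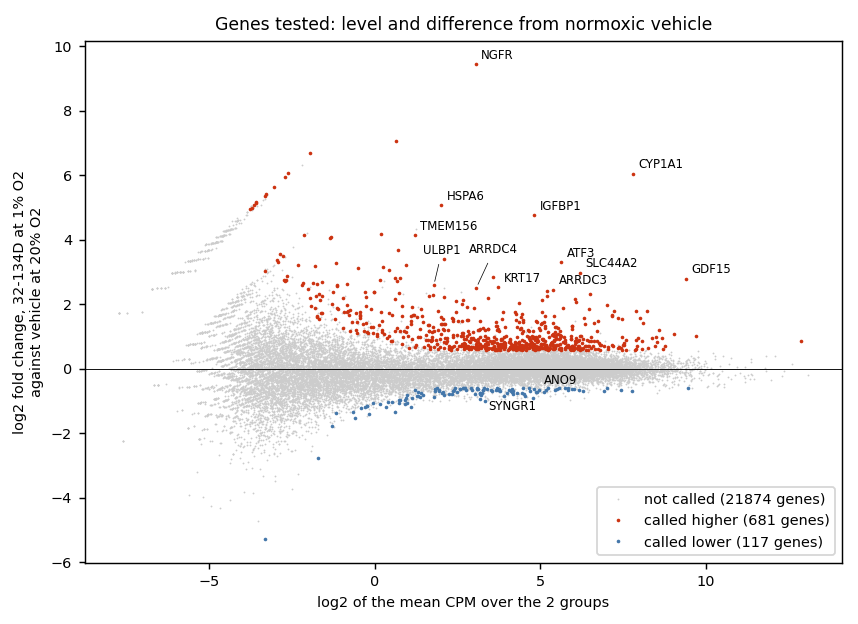
Difference from normoxic vehicle (log2 fold change, 32-134D at 1% O2 against vehicle at 20% O2, y axis) against level (log2 of the mean CPM over the groups, x axis), 1 point per gene tested, with 2 genes that had no count in these libraries left out. The 681 higher calls (red) reach a log2 fold change of 9.43 in NGFR, and the 117 lower calls (blue) lie close to the threshold except among genes of low level; labels mark the genes named by size of difference, and the streaks at the left are genes of few counts.

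HIF target genes were the list with the most members still above normoxia. A list of 50 HIF targets was examined, chosen, like the other lists, with earlier results of these data known. All 50 were higher in vehicle at 1% O2 than at 20% O2, with a median log2 fold change of 2.63. Given that choice, their rise is not an independent result. With 32-134D at 1% O2, 26 of the 50 were still higher than normoxic vehicle and 0 were lower, against 3.0% and 0.516% of all genes. The median log2 fold change was 0.64, against -0.003 over all genes tested. Without replicate 3 of 32-134D the count was 25 and the median 0.63. Of the other 24, 12 were bounded within 1.5-fold of normoxia and 12 were neither called nor bounded. The plot of HIF target levels shows the 32-134D libraries standing between both vehicle groups for the genes at its top and among the normoxic libraries at its bottom.

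**Figure D2:**
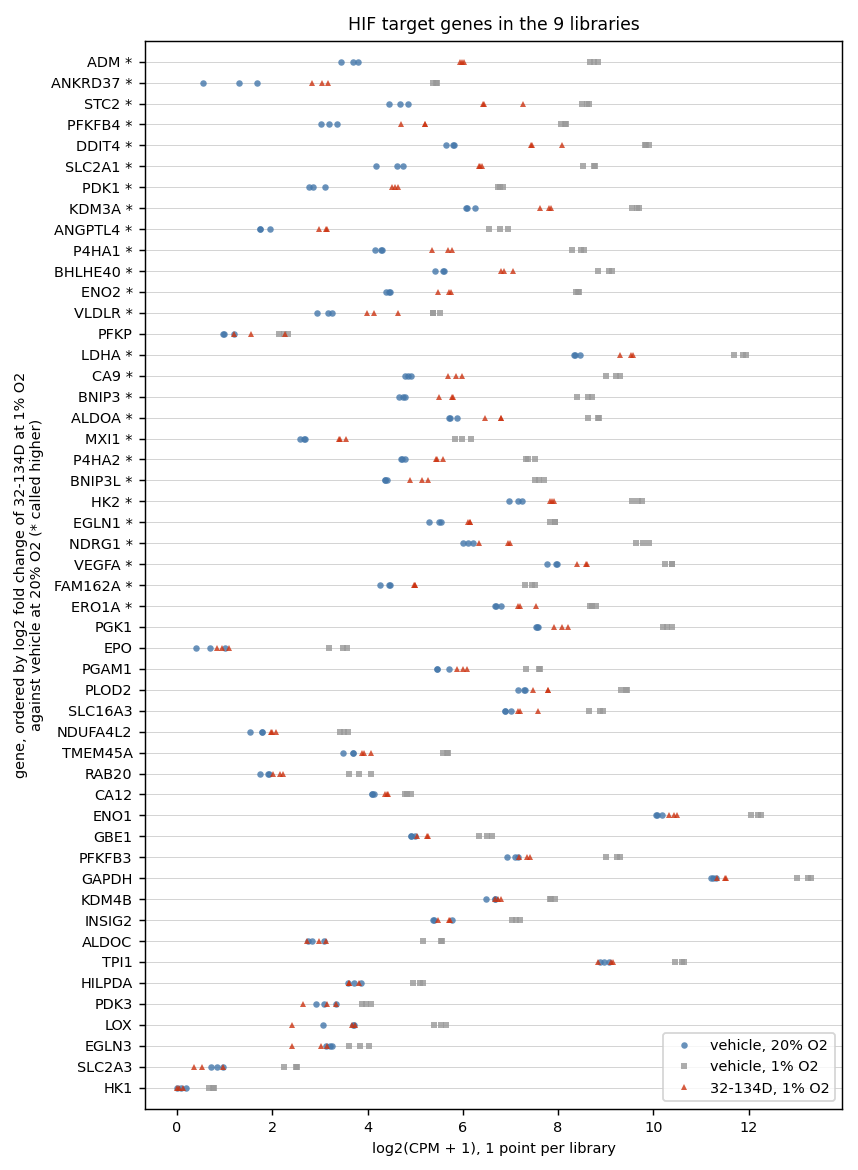
Levels of the 50 HIF target genes, as log2(CPM + 1) on the x axis, with 1 point per library (blue circles, vehicle at 20% O2; grey squares, vehicle at 1% O2; red triangles, 32-134D at 1% O2), ordered by log2 fold change of 32-134D against normoxic vehicle; an asterisk marks the 26 called higher. From ADM to ERO1A the red points lie to the right of the blue ones, except at PFKP, and from PGK1 downwards they draw closer to them.

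HIFs recognise a short core in promoters and enhancers, written ACGTG or GCGTG. To show the starts of HIF targets that were still called and of some that were not, 6 promoters follow: ADM, ANKRD37 and STC2, the 3 called higher with the largest difference from normoxia, and EPO, HK1 and ALDOC, the 3 not called whose rise in hypoxic vehicle was largest, which were not all bounded near normoxia. Each runs 5′ to 3′ on the gene's strand from 250 bases before to 50 after the start given by RefSeq (GRCh38.p14), with ACGTG and GCGTG on either strand in capitals. For HK1, which has 7 starts in that table and stayed under 1 CPM in all 9 libraries, the first listed is shown.

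ADM (chr11:10304823-10305122, plus strand): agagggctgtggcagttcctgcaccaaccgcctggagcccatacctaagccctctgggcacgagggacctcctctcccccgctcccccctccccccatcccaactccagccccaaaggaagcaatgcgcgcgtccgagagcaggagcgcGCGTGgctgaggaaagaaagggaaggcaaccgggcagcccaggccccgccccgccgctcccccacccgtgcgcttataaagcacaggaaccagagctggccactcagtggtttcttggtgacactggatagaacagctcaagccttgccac

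ANKRD37 (chr4:185396591-185396890, plus strand): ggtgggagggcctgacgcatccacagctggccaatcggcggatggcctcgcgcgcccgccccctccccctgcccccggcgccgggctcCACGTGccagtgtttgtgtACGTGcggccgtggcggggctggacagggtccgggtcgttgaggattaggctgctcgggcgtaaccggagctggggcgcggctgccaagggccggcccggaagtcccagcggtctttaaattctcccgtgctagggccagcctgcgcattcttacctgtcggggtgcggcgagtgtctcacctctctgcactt

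STC2 (chr5:173328365-173328664, minus strand): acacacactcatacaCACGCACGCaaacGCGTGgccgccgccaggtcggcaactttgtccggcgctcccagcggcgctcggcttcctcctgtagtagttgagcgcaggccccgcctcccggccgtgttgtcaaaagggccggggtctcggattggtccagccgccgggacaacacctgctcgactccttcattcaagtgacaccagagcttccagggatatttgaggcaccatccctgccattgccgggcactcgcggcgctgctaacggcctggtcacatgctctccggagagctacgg

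EPO (chr7:100720218-100720517, plus strand): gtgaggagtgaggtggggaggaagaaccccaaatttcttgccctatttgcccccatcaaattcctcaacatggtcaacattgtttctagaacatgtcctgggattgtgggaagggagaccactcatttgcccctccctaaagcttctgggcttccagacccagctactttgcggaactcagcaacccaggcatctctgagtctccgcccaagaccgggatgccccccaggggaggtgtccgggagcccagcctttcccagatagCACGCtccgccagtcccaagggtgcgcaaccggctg

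HK1 (chr10:69269750-69270049, plus strand): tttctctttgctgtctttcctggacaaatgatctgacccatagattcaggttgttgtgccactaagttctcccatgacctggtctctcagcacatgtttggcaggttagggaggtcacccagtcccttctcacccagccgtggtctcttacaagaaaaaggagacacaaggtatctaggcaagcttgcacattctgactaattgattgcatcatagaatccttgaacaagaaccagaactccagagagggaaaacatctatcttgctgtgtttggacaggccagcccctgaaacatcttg

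ALDOC (chr17:28576846-28577145, minus strand): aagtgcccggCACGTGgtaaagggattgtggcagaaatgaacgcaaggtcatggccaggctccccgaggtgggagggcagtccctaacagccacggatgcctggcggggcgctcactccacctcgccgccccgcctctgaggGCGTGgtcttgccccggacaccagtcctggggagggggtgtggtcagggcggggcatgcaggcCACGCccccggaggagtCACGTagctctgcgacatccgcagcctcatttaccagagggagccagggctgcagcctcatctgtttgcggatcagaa

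ANKRD37 held 3 matches to ACGTG, counted on both strands and with a palindromic CACGTG counted once for each strand, and ALDOC also held 3. Matches to ACGTG and GCGTG may overlap. ADM had 0 matches to ACGTG and 1 to GCGTG, STC2 0 and 3, EPO 0 and 1, and HK1 0 and 0. Over the first listed promoter of 27305 genes, 21.6% held ACGTG and 36.3% held GCGTG, and over the 12771 of them that were tested here, 25.6% and 48.2%. Among HIF targets with a promoter in the table, ACGTG was present in 14 of 23 called higher (60.9%) and 9 of 20 not called (45.0%), and GCGTG in 12 of 23 (52.2%) and 11 of 20 (55.0%), which is near the share of tested genes. A match is a string of letters and not a measured binding site, and known HIF elements can lie outside this window.

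ADM, which encodes the vasodilator peptide adrenomedullin, stood at 12.9, 9.89 and 11.9 CPM in vehicle at 20% O2 and at 61.9, 60.7 and 64.2 CPM with 32-134D, against 405, 432 and 453 CPM in vehicle at 1% O2. Its log2 fold change against normoxia was 2.40 ± 0.09 (SE), where that of hypoxic vehicle was 5.19. ANKRD37, which encodes an ankyrin repeat protein used as a HIF-1 indicator, stood at 2.22, 0.471 and 1.46 CPM in normoxia and at 7.97, 7.31 and 6.17 CPM with 32-134D (log2 fold change 2.22 ± 0.22). STC2, a secreted glycoprotein, stood at 20.9, 27.8 and 24.6 CPM in normoxia and at 84.6, 86.1 and 153 CPM with 32-134D (2.15 ± 0.19, and 1.82 without replicate 3). In none of these genes did the libraries with 32-134D overlap those of either vehicle group. The genes were picked by their difference from normoxia, and no overlap with normoxia held for 29.8% of all genes.

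Glycolysis splits glucose for energy without oxygen and is a textbook HIF program. Of 25 genes of glucose uptake and glycolysis, 23 were higher in hypoxic vehicle. With 32-134D 7 were higher than in normoxia, 0 lower and 12 bounded within 1.5-fold. Over all genes tested, 3.0% were higher and 0.516% lower. The share bounded was 75.1% among those with a normalized count of at least 100. PFKFB4, which makes the activator of phosphofructokinase, stood at 8.10, 9.26 and 7.15 CPM in normoxia and at 36.0, 36.1 and 24.9 CPM with 32-134D (log2 fold change 2.04 ± 0.14). SLC2A1, the glucose transporter GLUT1, stood at 17.2, 25.9 and 23.4 CPM in normoxia, at 83.3, 80.6 and 80.9 CPM with 32-134D and at 365, 429 and 440 CPM in hypoxic vehicle (1.89 ± 0.12 against normoxia). LDHA, which turns pyruvate into lactate, stood at 353, 321 and 328 CPM in normoxia and at 757, 738 and 626 CPM with 32-134D (1.08 ± 0.09). PDK1, a kinase that inhibits pyruvate dehydrogenase, was higher by 1.75 and the enolase ENO2 by 1.26 on the log2 scale, and ALDOA and HK2 also passed the test. Against these, GAPDH stood at 2543, 2424 and 2364 CPM in normoxia and at 2943, 2910 and 2584 CPM with 32-134D, a log2 fold change of 0.20 with an interval from 0.02 to 0.38. PGK1 lay just outside the call (log2 fold change 0.51, interval 0.34 to 0.69), with 191, 186 and 187 CPM in normoxia and 295, 269 and 242 CPM with 32-134D, and ENO1 was bounded (0.31, interval 0.15 to 0.48).

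Among angiogenic and secreted factors, 7 of 17 tested were higher than in normoxia and 0 lower, against 3.0% and 0.516% of all genes. VEGFA, the main vascular growth factor, stood at 215, 250 and 246 CPM in normoxia and at 386, 390 and 334 CPM with 32-134D (log2 fold change 0.64 ± 0.08, FDR 0.000205 by edgeR's quasi-likelihood test), after 2.45 in hypoxic vehicle. ANGPTL4, an inhibitor of lipoprotein lipase, was higher by 1.58, where hypoxic vehicle gave 5.43. EPO, the red cell growth factor for which Hep3B is a standard model, stood at 1.00, 0.314 and 0.608 CPM in normoxia, at 8.11, 10.2 and 10.9 CPM in hypoxic vehicle and at 0.794, 1.14 and 0.915 CPM with 32-134D. Its libraries with 32-134D overlapped the normoxic ones, and at these low counts the interval of its log2 fold change ran from -0.20 to 1.16.

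Genes that sense oxygen or feed back on HIF stayed in part above normoxia. Of 17 genes, 7 were higher and 0 lower with 32-134D than in normoxia, against 3.0% and 0.516% of all genes. The 7 were ANKRD37, BHLHE40 and MXI1 (both transcriptional repressors), VLDLR (a lipoprotein receptor), EGLN1, NDRG1 and CITED2. EGLN1, the prolyl hydroxylase that marks HIF-1α for destruction, stood at 37.9, 45.5 and 44.5 CPM in normoxia and at 70.4, 69.9 and 68.0 CPM with 32-134D (log2 fold change 0.71 ± 0.08). CITED2, which competes with HIF-1α for its coactivators, was higher by 0.62. The mRNAs of HIF1A, EPAS1 and ARNT were bounded within 1.5-fold of normoxia, and the interval for HIF1A ran from -0.07 to 0.24 on the log2 scale. CA9, a cell surface carbonic anhydrase that exports acid, was the 1 gene of 14 for pH control that was called: 28.0, 29 and 26.8 CPM in normoxia, 57.2, 61.9 and 50.6 CPM with 32-134D, and 511, 598 and 631 CPM in hypoxic vehicle (log2 fold change against normoxia 1.03 ± 0.10).

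Mitochondria, matrix and chromatin each kept a few genes above normoxia. Over all genes tested, 3.0% were called higher and 0.516% lower. BNIP3, BNIP3L and FAM162A, which encode mitochondrial proteins of mitophagy and cell death, were the 3 of 14 mitophagy and respiratory switch genes called, all higher. BNIP3 stood at 25.8, 24.2 and 26.7 CPM in normoxia and at 54.6, 53.3 and 44.3 CPM with 32-134D (0.98 ± 0.10). Of 22 collagen and crosslinking genes, the collagen prolyl hydroxylases P4HA1 (1.40) and P4HA2 (0.78) and the lysyl oxidase homologue LOXL2 (1.44, and 0.95 without replicate 3) were higher, and the laminin chain LAMA5 was lower (-0.59, and -0.41 without replicate 3, where it was not called). LOX itself stood at 12.3, 11.7 and 4.34 CPM with 32-134D and 12, 7.38 and 12 CPM in normoxia, after 41.2 to 49.4 CPM in hypoxic vehicle. Of 19 histone lysine demethylase genes, 2 were higher, KDM3A (1.63 ± 0.08) and JMJD6 (1.22). Bounded within 1.5-fold were 14 (73.7%), against 75.1% of all genes with a normalized count of at least 100.

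Among the lists examined, the integrated stress response had the greatest share of genes above normoxia. Lists may share members, and STC2 and VLDLR were also counted in the hypoxia lists above. Of all genes tested, 3.0% were called higher and 0.516% lower. Of 34 ATF4 and stress response genes, 23 were higher with 32-134D at 1% O2 than with vehicle at 20% O2 and 0 were lower, with a median log2 fold change of 0.95. In hypoxic vehicle 29 of the 34 were higher, with a median of 1.59. Without replicate 3 of 32-134D the count was 20 and the median 0.68, with PCK2, SHMT2 and SLC38A2 out of the call. ATF3, a stress-induced transcription factor, stood at 8.39, 8.32 and 10.1 CPM in normoxia and at 88.3, 91.9 and 91.0 CPM with 32-134D, and in hypoxic vehicle at 195, 230 and 201 CPM (log2 fold change against normoxia 3.30 ± 0.10, FDR 8.32e-11 by edgeR's quasi-likelihood test). GDF15, a secreted stress hormone, stood at 171, 179 and 168 CPM in normoxia and at 944, 973 and 1660 CPM with 32-134D (2.79 ± 0.17, and 2.47 without replicate 3). The libraries with 32-134D did not overlap the normoxic ones for either gene, as held for 29.8% of all genes in either direction. The rule that also names both genes further below required this.

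**Figure D3:**
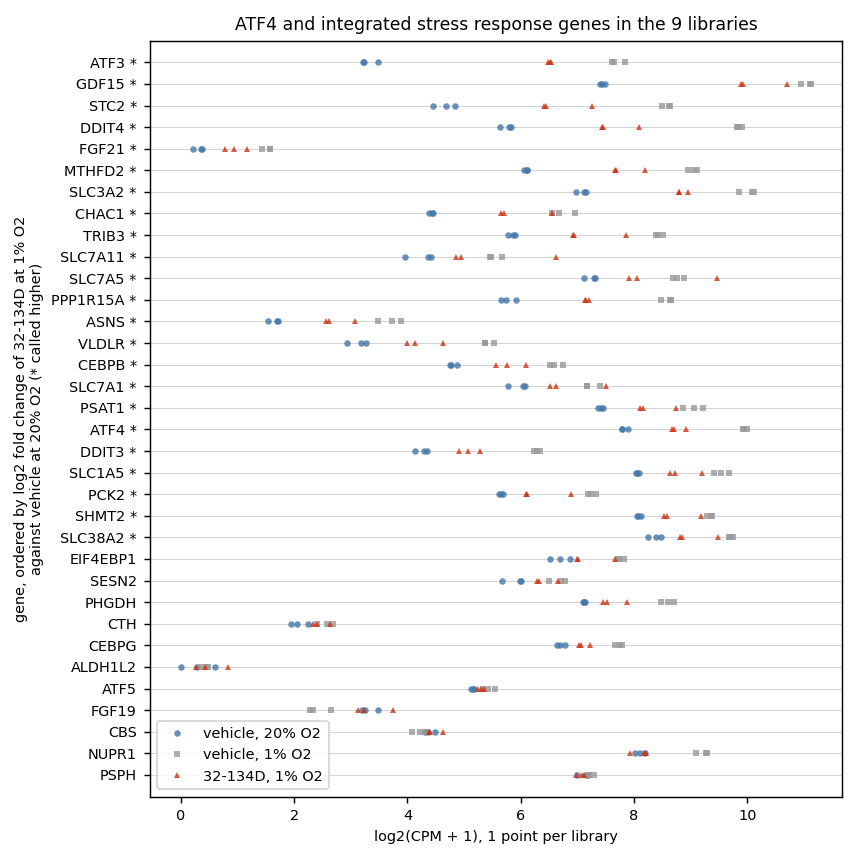
Levels of the 34 ATF4 and integrated stress response genes, as log2(CPM + 1) on the x axis, with 1 point per library and symbols as in the plot of HIF targets; an asterisk marks the 23 called higher. From ATF3 down to SLC38A2 the red triangles (32-134D at 1% O2) lie to the right of the blue circles (vehicle at 20% O2), and 1 triangle, replicate 3, is set apart to the right in genes such as SLC7A11 and SLC7A5.

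Among transcription factors of the list, ATF3, ATF4, DDIT3 and CEBPB were called higher and ATF5, CEBPG and NUPR1 were bounded within 1.5-fold of normoxia. ATF4 mRNA stood at 238, 221 and 221 CPM in normoxia and at 415, 408 and 484 CPM with 32-134D (0.94 ± 0.08), DDIT3, which encodes the death-linked factor CHOP, at 19.4, 18.7 and 16.5 against 32.5, 29.1 and 37.9 CPM (0.88 ± 0.11), and CEBPB was higher by 1.06. Among amino acid transporters, SLC3A2 was higher by 1.78, SLC7A5 by 1.42, SLC7A11 by 1.46 and SLC1A5 by 0.81 on the log2 scale. SLC7A5 and SLC7A11 were highest in replicate 3, and without it their differences were 0.74 and 0.62. Of enzymes, MTHFD2 (mitochondrial folate cycle) was higher by 1.79, ASNS (asparagine synthesis) by 1.39, PSAT1 (serine synthesis) by 0.96 and PCK2 by 0.78, the last falling to 0.47 and out of the call without replicate 3. Other members called higher were PPP1R15A, which directs dephosphorylation of eIF2α, by 1.42, TRIB3 by 1.48, DDIT4, an inhibitor of mTORC1, by 1.96, and CHAC1, which degrades glutathione, by 1.64. The hormone FGF21 was higher by 1.81 at under 2 CPM in every library. Of the 11 list members not called, 6 were bounded within 1.5-fold of normoxia.

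Immediate early genes are switched on within minutes of a stimulus and need no new protein. Of 20 AP-1 and immediate early genes, 10 were higher than in normoxia and 0 lower, with a median log2 fold change of 0.74 (9 genes and 0.49 without replicate 3, where JUND was not called). JUN, a subunit of AP-1, stood at 84.5, 90.9 and 94.0 CPM in normoxia and at 251, 282 and 260 CPM with 32-134D (1.56 ± 0.09). The AP-1 subunit FOSL2 was higher by 1.77, the transcription factor KLF4 by 2.27 and the MAP kinase phosphatases DUSP1 and DUSP5 by 1.42 and 1.48. Of 15 D cyclin, CDK inhibitor and growth arrest genes, 3 were higher, GADD45A (1.64), BTG2 (1.17) and GADD45B (0.73), 0 were lower and 6 were bounded within 1.5-fold. Without replicate 3, CDKN2D also passed (log2 fold change 0.78 against 0.60 with it). Few replication and mitosis genes were called. Of 24 G1/S genes 1 was higher (2 without replicate 3, with ORC1) and 19 were bounded (79.2%). Of 22 G2/M genes 0 were called and 21 were bounded (95.5%). Among all genes with a normalized count of at least 100, 75.1% were bounded, which the G1/S share is near. Of all genes tested, 3.0% were called higher and 0.516% lower.

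Heat shock proteins help unfolded proteins in the cytosol, and the unfolded protein response does so in the endoplasmic reticulum. Of 15 cytosolic heat shock genes, 6 were higher and 0 lower: HSPA6, DNAJB1, BAG3, CHORDC1, HSPA1B and HSPH1. DNAJB1, a cochaperone of HSP70, stood at 236, 236 and 231 CPM in normoxia and at 546, 553 and 499 CPM with 32-134D (1.18 ± 0.10), with 1022 to 1458 CPM in hypoxic vehicle. HSPA6, an HSP70 that cells make almost only under stress, stood at 0.287, 0.314 and 0.182 CPM in normoxia and at 7.20, 9.80 and 6.36 CPM with 32-134D (5.07 ± 0.54), and its reads can be shared with the near-identical HSPA7. HSPA1A and HSPA1B are also near copies of each other, so their split is uncertain. HSPA1A was not called (0.56) and was called without replicate 3 (0.61). In the unfolded protein response, DNAJB9 (1.51), HERPUD1 (1.01) and ERO1A (0.60) were the 3 of 20 genes called, all higher, and 15 of 20, among them the chaperone HSPA5, were bounded within 1.5-fold. ERO1A lost its call without replicate 3. Of all genes tested, 3.0% were called higher and 0.516% lower. The share bounded was 75.1% among those with a normalized count of at least 100.

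NRF2 is the transcription factor of the antioxidant response. Of 20 NRF2 targets, 8 were higher with 32-134D than in normoxia, 0 were lower and 10 were bounded within 1.5-fold. Over all genes tested, 3.0% were higher and 0.516% lower. The share bounded was 75.1% among those with a normalized count of at least 100. SRXN1, which repairs peroxiredoxins, stood at 2.87, 2.51 and 3.01 CPM in normoxia and at 9.84, 10.8 and 12 CPM with 32-134D (1.92 ± 0.15). TXNRD1, a thioredoxin reductase, stood at 128, 129 and 135 CPM in normoxia and at 362, 355 and 440 CPM with 32-134D (1.56 ± 0.10), and GCLM (1.27), GCLC (0.95), OSGIN1 (1.59), ME1 (0.78) and NFE2L2, the gene of NRF2 itself (0.68), were also higher. HMOX1 and NQO1, both widely used as NRF2 readouts, were bounded within 1.5-fold. Of 11 metallothionein and zinc transport genes 3 were higher, all at under 30 CPM, and 1 without replicate 3.

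CYP1A1, which encodes a cytochrome P450 that oxidises aromatic compounds and is the usual readout of the aryl hydrocarbon receptor (AhR), stood at 6.45, 6.75 and 6.69 CPM in normoxia, at 1.64, 1.79 and 1.07 CPM in hypoxic vehicle and at 104, 128 and 1086 CPM with 32-134D. All 3 libraries with the compound lay above the other 6, and the log2 fold change against normoxia was 6.05 ± 0.81, or 4.12 without replicate 3. It was called lower in vehicle at 1% O2 than at 20% O2 (log2 fold change -2.15) and higher with 32-134D than in hypoxic vehicle (8.19). TIPARP, another AhR target, stood at 28.6, 31.4 and 30.4 CPM in normoxia, 140, 143 and 140 CPM in hypoxic vehicle and 97.9, 109 and 245 CPM with 32-134D (2.32 against normoxia, 1.78 without replicate 3). CYP1B1 stood at 6.10, 7.27 and 38.5 CPM with 32-134D against 3.37, 5.02 and 3.38 CPM in normoxia (2.19, and 0.87 without replicate 3). Of 12 AhR list genes 4 were higher, the 3 above and SLC7A5, and 0 were lower, against 3.0% and 0.516% of all genes. The mRNAs of AHR and its partner ARNT were bounded within 1.5-fold of normoxia. Vehicle at 1% O2 held CYP1A1 below normoxia, and at that same oxygen level 32-134D held it above. With no library of 32-134D at 20% O2, whether the compound's effect on these genes depends on oxygen was not tested.

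Of 15 checkpoint, adenosine and natural killer (NK) cell ligand genes tested, 4 were higher than in normoxia and 0 lower. Over all genes tested the shares were 3.0% and 0.516%. ULBP1 and MICB encode ligands of the NK cell receptor NKG2D. ULBP1 stood at 1.22, 0.785 and 0.882 CPM in normoxia and at 5.90, 4.68 and 7.18 CPM with 32-134D (2.60 ± 0.21), and MICB at 16.7, 17.1 and 16.8 against 39.5, 40.9 and 34.2 CPM (1.18 ± 0.10). The adenosine receptor ADORA2B was higher by 1.10. CD47, the "do not eat me" signal, stood at 34.9, 31.7 and 32.8 CPM in normoxia and at 42.8, 45.1 and 73.3 CPM with 32-134D, and its log2 fold change of 0.69 fell to 0.40 and out of the call without replicate 3. NT5E, the adenosine-producing enzyme CD73, was bounded within 1.5-fold of normoxia, with 37.9, 34.7 and 29.1 CPM against 42.5, 40.5 and 43.2 CPM, where hypoxic vehicle held 7.18 to 10.0 CPM. The T cell checkpoint ligand CD274 (PDL1) was under 1.5 CPM in every library, with a log2 fold change of 1.21 that was not called and of 1.40, called, without replicate 3. Of 28 genes that the study names, 22 were tested, 7 were higher (SLC2A1, ANGPTL4, LDHA, CA9, NDRG1, CD47 and VEGFA) and 1, the chemokine CXCL1, was lower. CXCL1 stood at 19.1, 19.8 and 18.4 CPM in normoxia, 0.283 to 0.415 CPM in hypoxic vehicle and 12.8, 13.5 and 5.30 CPM with 32-134D (-0.84, and -0.53 without replicate 3, where it was not called).

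Large housekeeping programs were close to normoxia. Of 73 cytosolic ribosomal protein genes, 66 were higher in hypoxic vehicle, and with 32-134D 0 were called and 70 were bounded within 1.5-fold. All 73 estimates were above 0, with a median log2 fold change of 0.23. Among 13 mitochondrially encoded mRNAs, 8 were lower in hypoxic vehicle, and with 32-134D 0 were called and 12 were bounded. MT-CO3, a subunit of cytochrome oxidase, stood at 3348, 3109 and 3003 CPM in normoxia, 946, 860 and 918 CPM in hypoxic vehicle and 2699, 2527 and 2326 CPM with 32-134D. Of 29 nuclear-encoded respiratory chain genes, 0 were called and 27 were bounded. Of 14 iron transport and storage genes 0 were called and 10 bounded (71.4%), and of 20 fatty acid and triglyceride synthesis genes 0 were called and 14 bounded (70%). The lipid droplet gene PLIN2 of the last list was called without replicate 3 (log2 fold change 0.59 against 0.52 with it). Both shares are near the 75.1% bounded among all genes with a normalized count of at least 100. Over all genes tested 3.0% were called higher and 0.516% lower, so 0 calls in so few genes is no result about them.

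The remaining lists held few calls, set against 3.0% of all genes tested called higher and 0.516% lower. The count of higher and lower genes was 2 and 0 of 20 YAP and TGF-beta targets, 2 and 0 of 16 epithelial and mesenchymal markers, and 2 and 0 of 15 long noncoding RNAs. It was 1 and 0 of 21 interferon-stimulated genes, of 15 antigen presentation genes, of 15 hepatocyte transcription factors and of 8 gluconeogenesis genes. It was 0 and 1 of 19 fatty acid oxidation genes and of 19 chemokine and NF-kappaB genes, and 1 and 1 of 15 urea cycle and amino acid breakdown genes. In the last, the higher gene was ARG2, the mitochondrial arginase (log2 fold change 0.63), and the lower was the transaminase GPT (-0.79). Neither was called without replicate 3, where the estimates were 0.51 and -0.52. Without it the gluconeogenesis list, whose call was PCK2, and the chemokine list, whose call was CXCL1, also held 0 calls. The plot of calls by gene list shows these shares beside those of the stress and HIF lists.

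**Figure D4:**
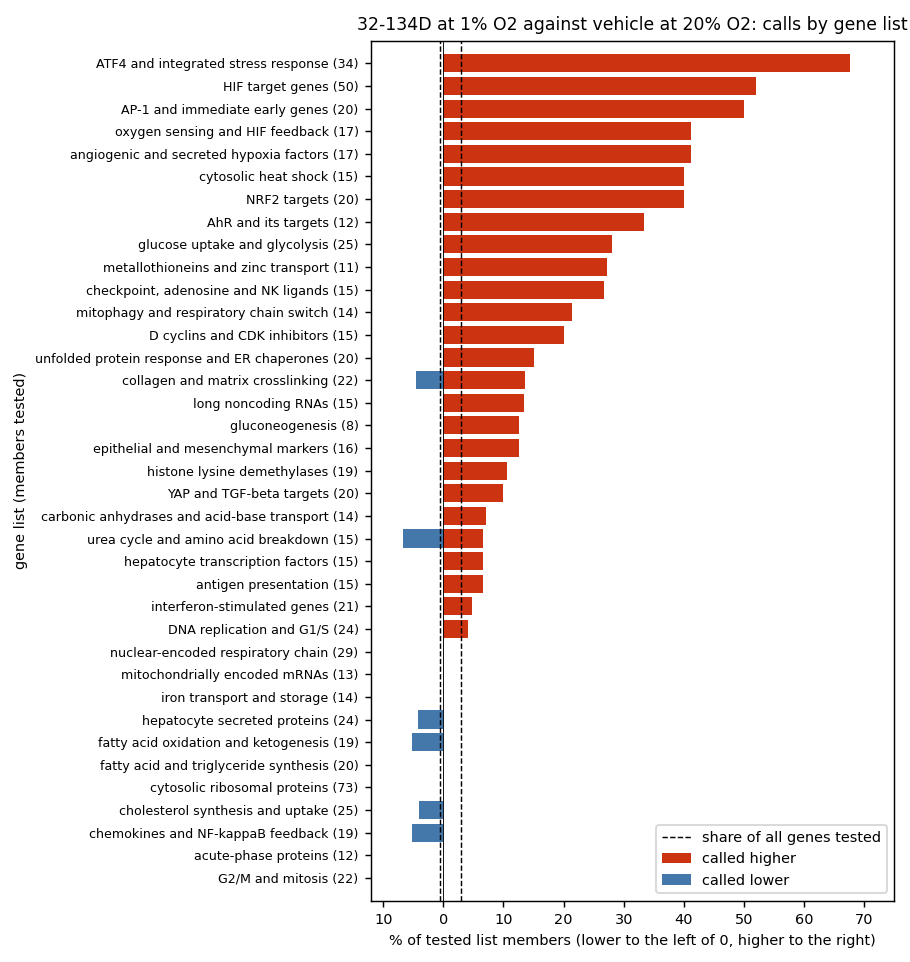
Share of each gene list called higher (red, to the right of 0) or lower (blue, to the left) with 32-134D at 1% O2 than with vehicle at 20% O2, in percent of the members tested, with that number in parentheses. Dashed lines mark the shares of all genes tested, 3.0% higher and 0.516% lower; ATF4 and integrated stress response (23 of 34), HIF target (26 of 50) and AP-1 (10 of 20) genes head the order, and lists may share members.

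Liver secretory genes lay on the low side of normoxia, and much of the difference was in 1 library. Of 24 genes for proteins that hepatocytes secrete, 0 were higher and 1 was lower with 32-134D, all 24 estimates were below 0, and 7 were bounded within 1.5-fold. The median log2 fold change was -0.44, and -0.19 without replicate 3. ALB, the gene of albumin, stood at 9338, 9061 and 5948 CPM with 32-134D and at 9686, 9088 and 9078 CPM in normoxia. The fibrinogen chain FGA stood at 127, 125 and 23.5 CPM against 145, 155 and 149 CPM, TTR (transthyretin) at 37.9, 34.5 and 9.79 against 45.1, 47.9 and 44.4 CPM, and APOA1, the main protein of high-density lipoprotein, at 459, 439 and 227 against 605, 560 and 543 CPM. Replicates 1 and 2 lay just under the normoxic libraries in these 3 genes and replicate 3 far under, and none of the 3 was called (FDR 0.28, 0.161 and 0.0704 by edgeR's quasi-likelihood test). The single call, APOA4, was under 1 CPM in all 6 libraries compared. Over all genes tested 0.516% were called lower. Of 12 acute-phase genes 0 were called, with a median of -0.50 (-0.28 without replicate 3), and of 25 cholesterol synthesis and uptake genes 1 was lower, LSS (lanosterol synthase), at 115, 110 and 55.7 against 141, 157 and 155 CPM (-0.69, and -0.43 without replicate 3, where it was not called).

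**Figure D5:**
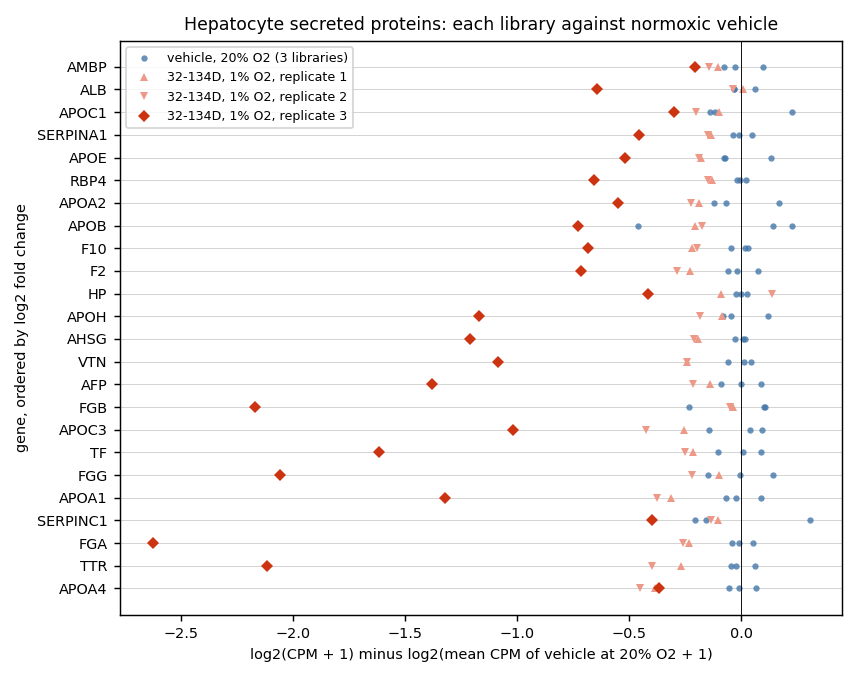
Each library's level of the 24 hepatocyte secreted protein genes, as log2(CPM + 1) minus the same of the normoxic mean CPM (x axis), for vehicle at 20% O2 (blue circles) and 32-134D at 1% O2 (light red triangles for replicates 1 and 2, dark red diamonds for replicate 3), ordered by log2 fold change. Replicates 1 and 2 lie just left of 0 for most genes, and replicate 3 lies far to the left for FGA, FGB, FGG and TTR.

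Over all genes, 350 above normoxia passed a rule for naming genes by size. They were called, reached a normalized count of 100, had no overlap between the groups' libraries and kept the call through all 6 omissions. The 12 of them with the largest differences above normoxia follow, members of the lists above included. They were NGFR, CYP1A1, HSPA6, IGFBP1, TMEM156, ATF3, SLC44A2, GDF15, ULBP1, KRT17, ARRDC4 and ARRDC3, with positions from GENCODE 29 on GRCh38. NGFR (chr17:49495293-49515017), the p75 neurotrophin receptor, had 1 count over the 3 normoxic libraries and 1448 with 32-134D. That is a ratio of 887, with a 95% counting interval (exact Clopper-Pearson) from 159 to 35062 that covers counting error only. Its level was 15.1, 21.0 and 13.4 CPM with 32-134D and 5.80, 7.87 and 6.98 CPM in hypoxic vehicle, so all 3 libraries with the compound lay above the untreated hypoxic ones (log2 fold change 1.27 between the hypoxic groups, called). IGFBP1 (chr7:45888357-45893668), a secreted binder of insulin-like growth factors made by liver, stood at 1.86, 2.36 and 1.98 CPM in normoxia and at 52.4, 48.5 and 61.7 CPM with 32-134D, below the 79.6 to 88.6 CPM of hypoxic vehicle (4.75 ± 0.13 against normoxia).

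SLC44A2 (chr19:10602457-10644559), a choline transporter-like protein, was at the untreated hypoxic level. It stood at 16.2, 18.1 and 15.6 CPM in normoxia, 129, 140 and 124 CPM in hypoxic vehicle and 138, 142 and 109 CPM with 32-134D. Its log2 fold change was 2.98 ± 0.11 against normoxia and -0.02 between the hypoxic groups, with an interval from -0.22 to 0.19. KRT17 (chr17:41619441-41624842), a keratin, stood at 17, 17.6 and 33.0 CPM with 32-134D against 4.59, 3.14 and 3.71 CPM in normoxia and 15.7 to 17.1 CPM in hypoxic vehicle (2.52 ± 0.24). TMEM156 (chr4:38966744-39032922) stood at 2.58, 3.57 and 7.04 CPM with 32-134D, above the 0.143 to 0.304 CPM of normoxia and the 0.424 to 0.530 CPM of hypoxic vehicle. With 32-134D, KRT17 and TMEM156 were both highest in replicate 3. The alpha-arrestins ARRDC4 (chr15:97960698-97973838) and ARRDC3 (chr5:91368724-91383359) were higher than in normoxia by 2.51 and 2.45 and lay below hypoxic vehicle, where their differences from normoxia were 4.89 and 4.09.

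The same rule left 2 genes below normoxia. SYNGR1 (chr22:39349925-39385588), which encodes a synaptic vesicle protein, stood at 8.45, 6.5 and 4.89 CPM with 32-134D, 11.3, 12.6 and 11.7 CPM in normoxia and 4.95 to 5.32 CPM in hypoxic vehicle (-0.82 ± 0.17). ANO9 (chr11:417933-442011), a member of the anoctamin family of membrane proteins, stood at 25.7, 22.2 and 24.8 CPM with 32-134D, 39.8, 36.1 and 38.0 CPM in normoxia and 9.97 to 11.6 CPM in hypoxic vehicle (-0.65 ± 0.10). For both, the 3 libraries with 32-134D lay below all 3 normoxic ones, as the rule required.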

How the data were processed

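RNA was extracted with TRIzol from Hep3B cultures that the labels call biological replicates, 3 for each of 3 conditions, and sequenced on an Illumina NovaSeq. The authors trimmed reads with Bbduk, aligned them with STAR to GRCh38, and deposited whole read counts per Ensembl gene from featureCounts (submitters' notes also name DESeq2, FastQC and MultiQC). Versions and the strand setting are not given in the sources used here, so a gene and its antisense partner cannot be told apart. The deposited counts listed 60683 genes, each library had 6013980 to 40549699 counts, and no unassigned class was present.

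Genes with at least 10 counts over the 9 libraries (22672) were fitted in 1 model by edgeR 4.0.16 in R 4.3.3 (TMM scaling, quasi-likelihood test, Benjamini-Hochberg adjustment over all genes), with no block. Calls needed an adjusted p below 0.05 and a fold change above 1.5. All 9 libraries entered so that the spread was shared (biological coefficient of variation 10.5%). 95% intervals came from the same fit. The script was tested on simulated data. Alternatives were DESeq2 1.42.0, other scalings and filters, a replicate block, thinning to the smallest library, removal of length and GC trends, and each library left out.

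Genes were named by size among those called, at a normalized count of at least 100, without overlap and kept through each omission (up to 12 higher and 10 lower, Y-linked genes left out), as members of 40 lists (836 entries, 835 matched by symbol and 1 by its current symbol), as genes the study names, or, for promoters, as the HIF targets described beside them, chromosome 8 left out. The members and lists were chosen with earlier results of these data known. GENCODE 29 placed 98.1% of tested genes. The values depend on the total count of each library, and a low-count gene is measured less precisely. A gene that the lists count is not reported by name here.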

Additional observations from a re-analysis of the deposited data

How the results depend on the processing

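Under most settings the count of higher genes stayed within 1.5 times of 681 (617 with total library size, 700 with DESeq2, 865 with no filter), and it ranged from 533 to 800 with 1 library left out. It was 167 when the test itself was set against 1.5-fold (edgeR's glmTreat), 283 with a fold above 2 and 1771 with no fold required. The lower genes depended on the settings far more. Their count was 0 with glmTreat, where the test against no change gave 553 at any fold and DESeq2 gave 145, 21 with a fold above 2, 39 with only the 6 libraries compared, 63 with length and GC trends removed and 291 with no filter. With 1 library left out it ranged from 35 to 198: 62, 35 and 41 without replicates 1, 2 and 3 of vehicle at 20% O2, 198, 176 and 83 without those of 32-134D, and 89, 79 and 46 without those of vehicle at 1% O2. Without both vehicle at 20% O2 replicate 2 and 32-134D replicate 3, chosen after seeing the data, it was 53. HIF targets called higher numbered 17 with glmTreat and 15 with a fold above 2, and ATF4 and stress response genes 13 and 15. The cause of these differences was not tested beyond the stricter or looser rule itself. The 9104 genes bounded within 1.5-fold numbered 7839 to 10336 over the alternatives.

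Of 98 called genes named in the text, 76 kept the call under every alternative that left the calling rule as it was, and 0 changed sign. The stricter rules, glmTreat and a fold above 2, were not applied in this count of named genes. DESeq2 gave CYP1A1 no adjusted p, which is not counted. The calls lost most often were those of GPT (14 alternatives), LAMA5, CXCL1 and APOA4 (10 alternatives each), LSS (9) and ERO1A (8). Of genes not called, ARNT changed sign with thinning (-0.0721) and without vehicle at 20% O2 replicate 1 (-0.0197, in a range up to 0.1306 over the omissions), and HIF1A with trends removed (-0.0305). LOX did so without 32-134D replicate 3 (0.1039, in a range down to -0.4035 over the omissions). AHR, near 0 throughout, did so with at least 10 counts in every library (-0.0058), trends removed (-0.0938), protein-coding genes only (-0.0183), thinning (-0.0137) and total library size (-0.0171), and ranged from -0.0301 to 0.0676 over the omissions. Same-numbered libraries of the groups correlated weakly (r 0.095, 0.030 and 0.056), so the numbers were not taken as pairs, although each library correlated best with its own number. With a replicate block 659 genes were higher, 126 lower and 8880 bounded, and 1 named gene lost its call. With every library thinned to the 6013980 counts of the smallest, 7839 genes were bounded.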

Other observations

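Members of some gene families also differed from normoxia. The families were chosen after their values were seen and taken whole by symbol. They overlap the lists above, where DUSP1, DUSP5 and KLF4 were already counted. Of 20 cytosolic aminoacyl-tRNA synthetases, which load amino acids onto transfer RNA, 6 were higher with 32-134D at 1% O2 than with vehicle at 20% O2 and 0 were lower, with a median log2 fold change of 0.44. Only 2 of the 6 kept the call with each of the 6 libraries left out in turn. GARS1 was higher by 0.98, TARS1 by 0.90 and SARS1 by 0.75 (0.57 and not called without 32-134D replicate 3). Of the 17 mitochondrial synthetases 0 were called by edgeR's quasi-likelihood test and 15 were bounded within 1.5-fold, with a median of -0.03. All genes tested had 3.0% higher and a median of -0.003.

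Of 5 alpha-arrestins, adaptors that promote endocytosis of membrane proteins, 4 were higher: ARRDC4, ARRDC3, TXNIP (1.86) and ARRDC2 (0.91). ARRDC1 was bounded, with a log2 fold change of -0.24. Of 22 dual-specificity phosphatases, most of which act on MAP kinases, 6 were higher and 0 lower, and of 15 Kruppel-like factors 4 were higher and 0 lower. Of 442 zinc finger genes named ZNF, 31 were higher (7.01%) and 2 lower. Over all genes tested, 3.0% were higher and 0.516% lower.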
